A study of Caenorhabditis elegans with 2 samples.

Results

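The genes described here encode translation factors of the worm *Caenorhabditis elegans*, the proteins that start and extend protein synthesis on the ribosome. Members were all protein-coding genes of the WBcel235 annotation whose name begins with eif- (initiation) or eef- (elongation), and 31 of 19985 protein-coding genes met that rule. Of these, 25 are initiation factor genes and 6 are elongation factor genes. Binding of LIN-35, the retinoblastoma-like pocket protein of the worm, was mapped near their starts by chromatin immunoprecipitation and sequencing (ChIP-seq). The chromatin came from whole young adults of strain YL402, a pool of males and females of unknown age. These worms carry unc119(ed3)III and the transgene vrIs56. In that transgene a pPIE-1 promoter, which is active in the germline, drives LIN-35 with a GFP and FLAG tag, followed by the LIN-35 3'UTR, and unc-119 (+) is part of the same insertion. The genotype as labelled names no mutation of the endogenous *lin-35* gene, and the antibody is labelled lin-35. The 2 libraries, biological replicates 2 and 3, form 1 group. There is therefore no comparison of conditions, and the spread between the libraries is the only error that can be shown.

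Initiation factors bring the initiator tRNA and the mRNA to the small ribosomal subunit, and elongation factors deliver aminoacyl-tRNAs and move the ribosome along the mRNA. Growing cells use large amounts of both, and in the worm the adult germline is a main site of growth and protein synthesis. LIN-35 acts in the DREAM complex, whose E2F and DP proteins bind E2F sites and whose LIN-54 protein binds a short element called CHR (cell cycle genes homology region). DREAM is known mainly as a repressor of cell cycle genes.

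The lists analysed held 20291 regions for replicate 2, 30000 for replicate 3, 30000 for the pooled libraries and 396 peaks that passed the irreproducible discovery rate (IDR) threshold of the authors. Each region carries a signal value given by the authors, whose scale is not stated, so signals and ranks are compared only within a list. The 396 thresholded peaks were the 396 highest-ranked pooled regions. Read depth is unknown, and intervals below are exact Clopper-Pearson 95% intervals that cover the number of genes or regions counted only. Distances are from the summit of a region to the annotated gene start, negative where the summit lies upstream.

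Thresholded LIN-35 peaks lay within 1000 bp of the start of 5 of the 31 translation factor genes, namely *eef-2*, *eef-1A.1*, *eef-1G*, *eif-3.C* and *eif-3.B*. That is 16.1% of the members (95% interval 5.45% to 33.7%), against 2.53% of all protein-coding genes, among which the members are counted. The elongation factor genes held 3 of these 5 genes, 50% of 6 (95% interval 11.8% to 88.2%). The initiation factor genes held the other 2, 8.0% of 25 (95% interval 0.984% to 26.0%), both in the eIF3 complex. The remaining 23 initiation factor genes had no thresholded peak in reach. These counts are small and were not tested.

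**Figure D1:**
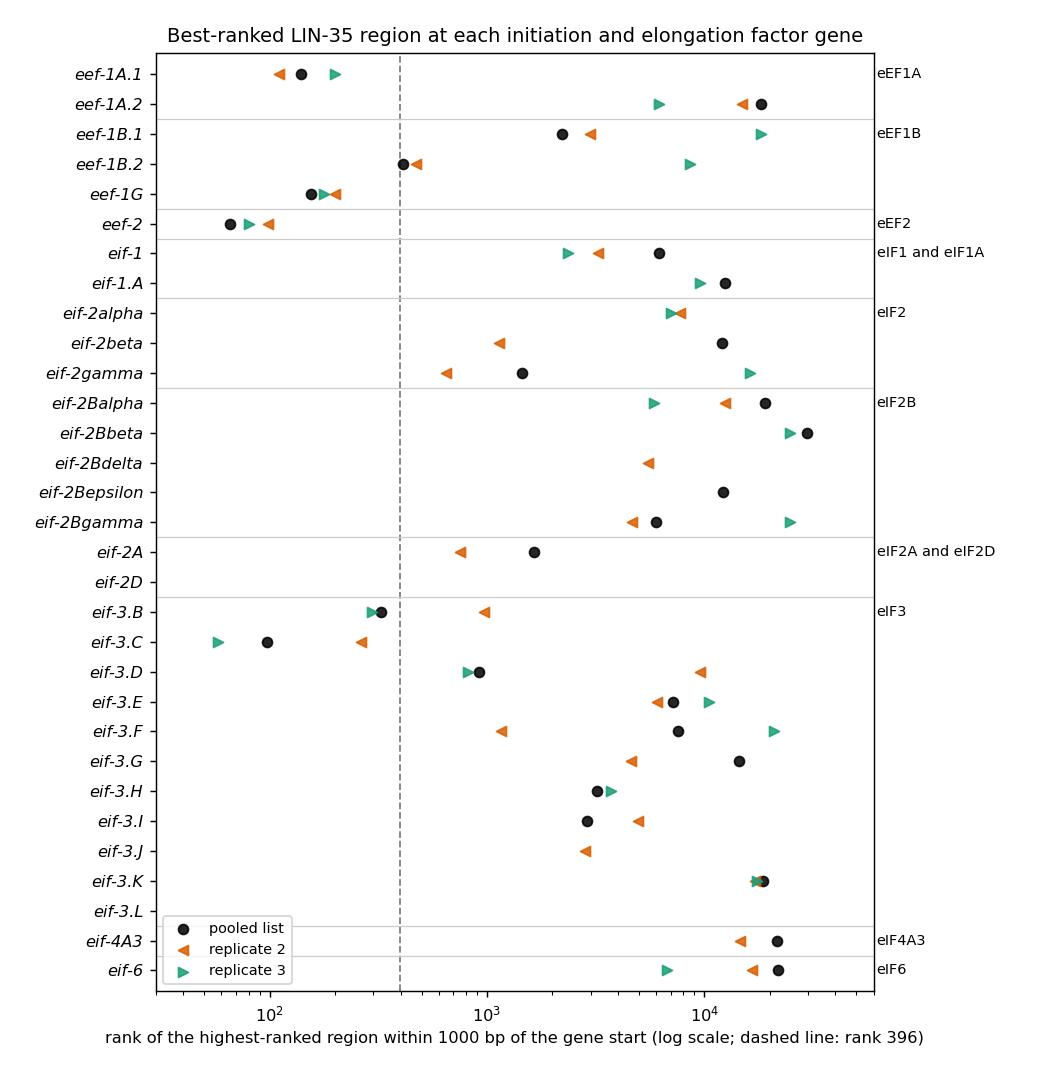
Rank of the highest-ranked region within 1000 bp of each of the 31 gene starts (x axis, log scale) in the pooled list (circles), replicate 2 (left triangles) and replicate 3 (right triangles), with genes grouped by factor on the y axis. Circles left of the dashed line at rank 396 are the 5 genes with a thresholded peak, and *eif-2D* and *eif-3.L* have no symbol because no list held a region in reach.

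Elongation factor eEF2, encoded by *eef-2*, is the GTPase that moves the ribosome along the mRNA. Its start on chromosome I had the highest-ranked region of all members, at pooled rank 66 with a signal of 78.7. The best region at this start ranked 98 in replicate 2 (signal 36.02) and 80 in replicate 3 (signal 36.9). Both libraries thus had a region here well inside their 396 highest-ranked regions. A further thresholded peak, at pooled rank 357 with a signal of 31.7, had its summit 147 bp inside the gene and overlapped the end of the stronger one. In each replicate list the locus held a single region, with its summit 84 bp inside the gene in replicate 2 and 52 bp upstream in replicate 3. Each of these regions overlapped both thresholded peaks, so its rank cannot be given to the stronger peak alone.

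Factor eEF1A carries aminoacyl-tRNA to the ribosome, and the worm has a pair of genes for it. *eef-1A.1* on chromosome III had a thresholded peak (pooled rank 140, signal 55.2) and ranked 110 in replicate 2 (signal 34.9) and 199 in replicate 3 (signal 22.8). Its paralog *eef-1A.2*, on the X chromosome, had only a weak pooled region at rank 18204 with a signal of 8.31, 947 bp upstream. Its best regions ranked 14853 in replicate 2 and 6190 in replicate 3, and these were not the same place, as the replicate 2 summit lay 621 bp inside the gene. Both libraries thus ranked *eef-1A.1* above *eef-1A.2*. The paralogs share sequence in their bodies, with 96 of the 1652 stretches of 36 bases in *eef-1A.1* also found in *eef-1A.2*. No stretch of that length within the best pooled region of either gene occurred anywhere else in the genome.

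The eEF1B complex reloads eEF1A with GTP, and its 3 genes differed widely in rank. *eef-1G*, which encodes the gamma subunit, had a thresholded peak on chromosome V at pooled rank 155 with a signal of 53.2. Its ranks were 200 in replicate 2 and 178 in replicate 3, a difference of 1.12-fold. *eef-1B.2* on chromosome IV came just outside the threshold, at pooled rank 410 with a signal of 29.1. For comparison, the member just inside was *eif-3.B* at rank 324 with a signal of 33.95, and the lowest signal on the thresholded list was 29.96. The libraries did not give *eef-1B.2* a like place, with rank 470 in replicate 2 (signal 14.2) and 8611 in replicate 3 (signal 8.04). *eef-1B.1* on chromosome III was weaker in every list, with pooled rank 2223, rank 2980 in replicate 2 and rank 18201 in replicate 3.

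All 3 thresholded elongation factor genes share their upstream sequence with a gene on the other strand. The *eef-2* and *clsp-1* starts are 265 bp apart, and the stronger summit lay 52 bp upstream of *eef-2* and 213 bp upstream of *clsp-1*, which encodes claspin, a mediator of the replication checkpoint. The *eef-1G* and *ctf-4* starts are 180 bp apart, and the summit lay 51 bp upstream of *eef-1G* and 129 bp upstream of *ctf-4*, a homolog of a yeast replisome adaptor. The *eef-1A.1* and *rfc-4* starts are 541 bp apart, and here the summit was nearer to *rfc-4* (142 bp), which encodes a clamp loader subunit, than to *eef-1A.1* (399 bp). A peak of this kind cannot be assigned to 1 of its 2 genes. An alternative added after the values were seen left out peaks that lie within 1000 bp of starts on both strands. With it, 0 of the 6 elongation factor genes and 2 of the 31 members kept a thresholded peak. The same count was not made over all protein-coding genes, so these have no background beside them. Over all genes, 262 of the 505 with a thresholded peak have a start on the other strand within 1000 bp of their own. With each peak given only to its nearest start, 4 of the 5 members kept theirs and *eef-1A.1* did not.

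**Figure D2:**
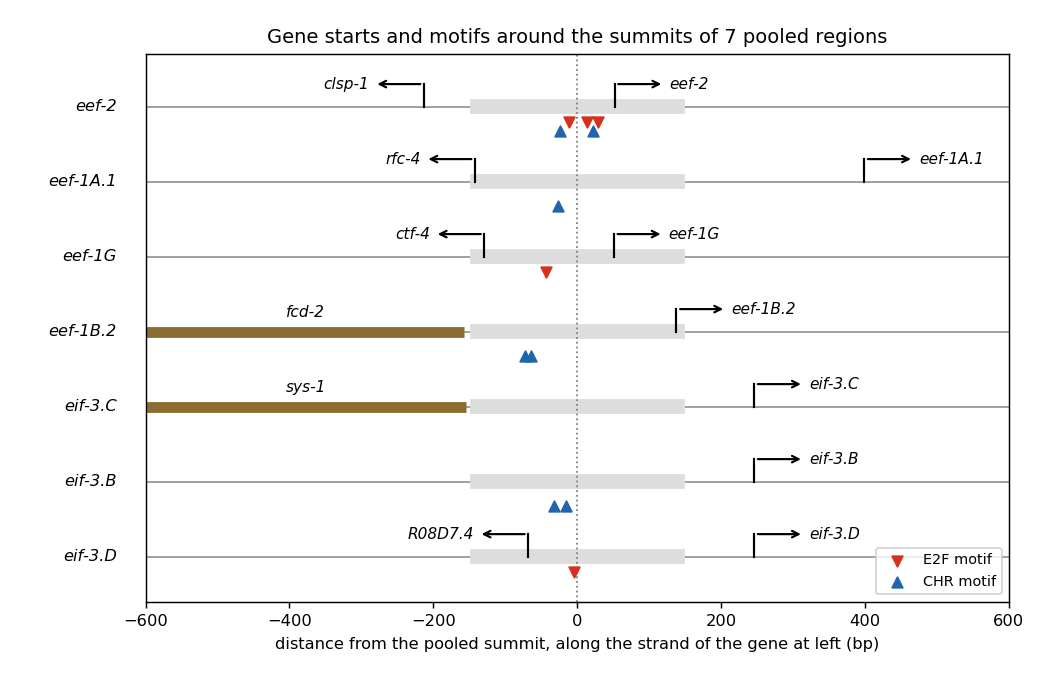
Positions of gene starts (arrows), E2F motifs (red, pointing down) and CHR motifs (blue, pointing up) around the pooled summit at 0 bp for the 7 members among the 1000 highest-ranked pooled regions. The x axis is the distance in bp along the strand of the gene at left, grey boxes are the pooled regions, and brown bars are genes on the same strand that end upstream. The *eef-2*, *eef-1A.1*, *eef-1G* and *eif-3.D* summits lie between starts on both strands.

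Such gene pairs were common among the members. A start on the other strand lay within 1000 bp of 17 of the 31 member starts (54.8%), against 18.7% of all protein-coding starts. Of these 17 members 3 had a thresholded peak (17.6%), against 7.01% of all genes with such a neighbour. A gene on the same strand ended within 500 bp upstream of another 6 members, as in worm operons, where genes are transcribed together. Of those 6, *eif-3.C* had a thresholded peak (16.7%), against 2.68% of all genes in that setting. Neither neighbour was present at 8 members, of which *eif-3.B* had a thresholded peak (12.5%), against 1.18% of all such genes. The counts behind the member shares in these 3 settings were only 3, 1 and 1, and the differences from all genes were not tested.

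The eIF3 complex is the largest initiation factor and holds the small ribosomal subunit ready for the mRNA. Its 11 genes with an eif- name gave 2 with a thresholded peak (18.2%, 95% interval 2.28% to 51.8%) and 3 among the 1000 highest-ranked pooled regions. Subunit genes with other names, such as *egl-45*, fall outside the name rule and were not counted. Over all factors 7 of 31 members were among those 1000 (22.6%), against 5.09% of all protein-coding genes. *eif-3.C* on chromosome I was the strongest, at pooled rank 97 with a signal of 65.95, and ranked 262 in replicate 2 (signal 19.5) and 58 in replicate 3 (signal 43.75). Its summit lay 246 bp upstream, in the 400 bp between the start and the end of *sys-1*, a beta-catenin gene on the same strand. No pooled region lay within 1000 bp of the *sys-1* start, so this peak had no other start in reach. *eif-3.B* on chromosome II was at pooled rank 324 and also had no other start in reach. It ranked 296 in replicate 3 but 964 in replicate 2, which puts it outside the 396 highest-ranked regions of that library alone.

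*eif-3.D* on chromosome III came next among the eIF3 members, at pooled rank 922 with a signal of 20.4. Its rank was 817 in replicate 3 and 9498 in replicate 2, and its summit was nearer to the divergent gene R08D7.4 (68 bp) than to *eif-3.D* (246 bp). The other 8 eIF3 members ranked much lower. *eif-3.I* (pooled rank 2878) and *eif-3.H* (3199) had their summits 16 bp and 45 bp from the start of a divergent gene. *eif-3.E* was at pooled rank 7148, *eif-3.F* at 7559, *eif-3.G* at 14388 and *eif-3.K* at 18618. *eif-3.J* had a region in replicate 2 alone, at rank 2809. *eif-3.L* had none in any list. The 9 eIF3 members with a pooled region thus lay between ranks 97 and 18618 of 30000.

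The initiation factors that handle the initiator tRNA and select the start codon had no thresholded peak, against 2.53% of all protein-coding genes. A count of 0 among so few genes is near that share. Factor eIF2 carries the initiator tRNA, and the best of its 3 genes was that for the gamma subunit, the one that binds GTP, *eif-2gamma*, at pooled rank 1452 with a signal of 17.9. That region ranked 646 in replicate 2 and 16162 in replicate 3, 25.0-fold apart. *eif-2beta* had a pooled region at rank 12028, 818 bp inside the gene. *eif-2alpha* had no pooled region but weak ones in both replicate lists, at ranks 7696 and 7047. These were not the same place, with summits 921 bp upstream in replicate 2 and 384 bp upstream in replicate 3. The *eif-2alpha* gene begins 132 bp after the end of *phb-1*, and the best pooled region at the *phb-1* start, at rank 2914, lay 1773 bp from the *eif-2alpha* start. Its nearest pooled summit was therefore outside the 1000 bp limit, as were those of *eif-3.J* at 1613 bp and of 3 other genes with no pooled region at 2214 to 2704 bp. The best summit farthest from its start, within the limit, was that of *eef-1A.2* at 947 bp.

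Factor eIF2B recharges eIF2 with GTP and is a control point of translation under stress. It had 0 of 5 genes with a thresholded peak, against 2.53% of all genes, which allows up to 52.2% by the exact interval. *eif-2Bgamma* was the best at pooled rank 6007, in an intron of the gene upstream. In that region 35.6% of 36-base stretches occur elsewhere in the genome and 2 small RNA genes lie within 500 bp of the summit. The part of this repeat in the value was not tested. The other 4 were at pooled ranks of 12201 (*eif-2Bepsilon*), 19048 (*eif-2Balpha*) and 29602 (*eif-2Bbeta*), or had a region in replicate 2 alone (*eif-2Bdelta*, rank 5504). *eif-2A*, which encodes a protein able to bring initiator tRNA to the ribosome without eIF2, stood higher. Its region 99 bp upstream had pooled rank 1637, a signal of 17.4 and rank 747 in replicate 2, while replicate 3 held no region in reach. *eif-2D* had no region in any list.

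The genes for eIF1 and eIF1A, which keep the scanning ribosome open for start codon choice, ranked low. *eif-1* was at pooled rank 6199 and *eif-1.A* at 12405. *eif-4A3*, a helicase of the exon junction complex, was at 21466, and *eif-6*, which keeps ribosomal subunits apart, was at 21813. Within the *eif-6* gene the pooled summit lay in an intron, and none of the replicate regions overlapped it.

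The lists of the 2 libraries differ in length, so gaps between their ranks are given as descriptions. Regions were in reach of 25 members in replicate 2 (80.6%) and 21 in replicate 3 (67.7%), against 40.1% and 53.0% of all genes. Both lists held a region at 18 members (58.1%), against 24.1% of all genes. Of the 26 best pooled regions, 13 overlapped a region in both lists, 5 in replicate 2 only, 5 in replicate 3 only and 3 in neither. Over the 13, Spearman's rho of the ranks was 0.66, given as a description since the pooled list that chose them was made from the same reads. The ranks were 4.52-fold apart at the median, and from 1.02-fold at the weak region of *eif-3.K* to 25.0-fold at *eif-2gamma*. At the 5 members with a thresholded peak the gap ran from 1.12-fold (*eef-1G*) to 4.52-fold (*eif-3.C*). Gaps over 10-fold occurred at *eef-1B.2*, *eif-3.D*, *eif-2gamma* and *eif-3.F*. At 3 of these 4, *eif-3.D* being the exception, replicate 2 gave the higher place. Among the 396 highest-ranked regions of each library, 4 members were in reach in replicate 2, against 2.28% of all genes, and 5 in replicate 3, against 2.17% of all genes. All of these are among the 5 with a thresholded peak, to which the same limit applies.

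Summits at translation factor genes lay mainly upstream. Of the 26 best pooled regions, 22 (84.6%) were upstream of the gene start, against 56.3% of the 10591 genes of any kind with a pooled region. The share was 71.4% for the other translation genes counted below, 59.7% for ribosomal protein genes and 52.6% for aminoacyl-tRNA synthetase genes. The 250 bp directly upstream held 12 of the 26 (46.2%), against 18.5% of all genes. The 250 bp directly inside the gene held 0 of 26, against 11.6%. The median distance was 300 bp for members and 434 bp for all genes. In the similar groups it was 320 bp for other translation genes, 367 bp for ribosomal protein genes and 320 bp for synthetase genes. All 7 members among the 1000 highest-ranked regions had upstream, intergenic summits. Over all 26, intergenic summits numbered 18 (69.2%), against 44.1% of the best regions of all genes. Coding exons held 3 (11.5%), against 27.1%, and introns 3 (11.5%), against 21.2%. A 5′ UTR held 1 (3.85%), against 4.13%, and a 3′ UTR 1 (3.85%), against 3.48%. The 4 summits inside genes downstream of the start belonged to *eif-2beta*, *eif-2Bepsilon*, *eif-3.K* and *eif-6*, none of which ranked above 12028.

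**Figure D3:**
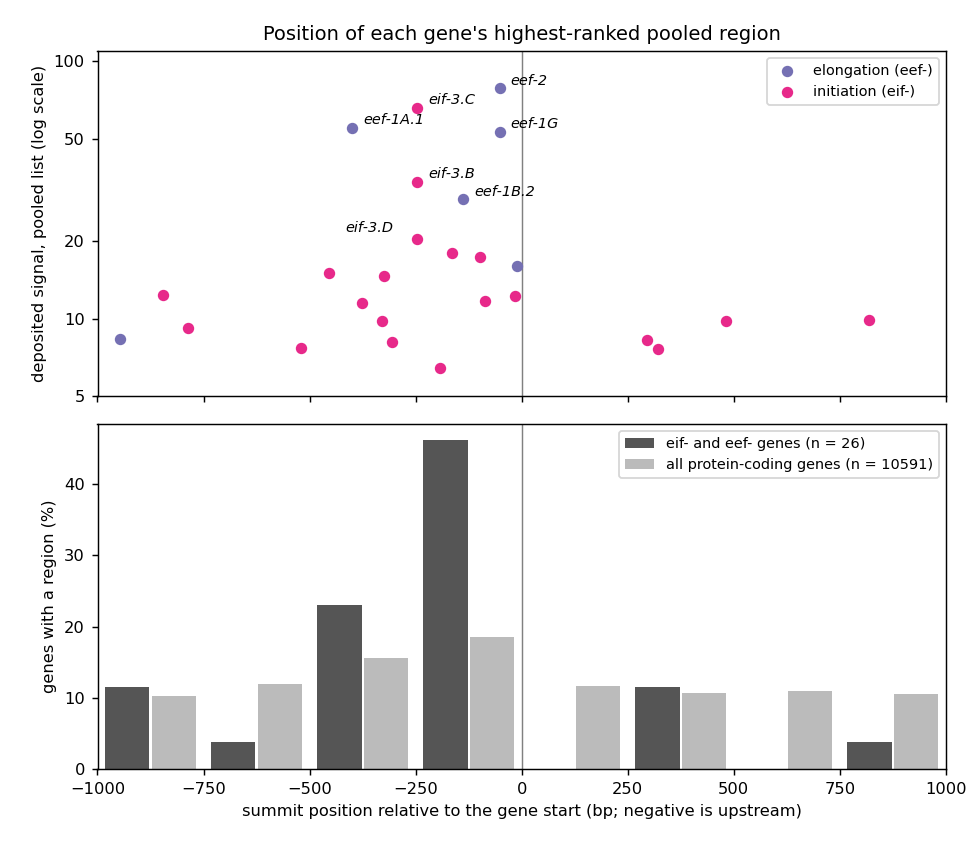
Upper panel, deposited pooled signal (y axis, log scale) against the position of the summit relative to the gene start (x axis, bp) for the best pooled region of 26 members, with the 7 highest-ranked named. Lower panel, share of genes with a best region in each 250 bp bin for the 26 members (dark bars) and all 10591 protein-coding genes with a region (light bars). The bin from -250 to 0 bp holds 46.2% of members and 18.5% of all genes.

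E2F and CHR motifs were searched within 100 bp of each best pooled summit, on both strands. The E2F motif was any of the words TTCCCGC, or TTCGCGC, or else TTGCCGC, or otherwise TTGGCGC, and the CHR motif was TTCGAA or TTTGAA. The words of the 2 motifs do not contain one another. The E2F motif was found at 6 of the 26 best regions (23.1%, 95% interval 8.97% to 43.6%), against 10.4% of the best regions of all nuclear genes and 7.8% of all pooled regions. These 6 were the regions of *eef-2*, *eef-1G*, *eif-3.D*, *eif-2gamma*, *eif-2A* and *eef-1B.1*, all of which are among the 10 highest-ranked members. None of the 16 lower-ranked members with a region had the motif. The CHR motif was found at 15 of 26 (57.7%), against 54.4% of best regions of all nuclear genes, so its share was near the background.

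At the 5 members with a thresholded peak the motifs were mixed. Of the 5, *eef-2* and *eef-1G* (2 genes) had an E2F match, against 55.8% of best regions of all genes with a thresholded peak. *eef-2* had 3 matches, at 12 bp upstream and 13 and 29 bp downstream of its summit. The CHR motif was present at *eef-2*, *eef-1A.1* and *eif-3.B*, 3 of 5 (60%), against 75.3% of the best regions of all genes with a thresholded peak. *eif-3.C* had neither motif. Ribosomal protein genes with a thresholded peak had the E2F motif at 4 of 17 (23.5%).

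The E2F match nearest the summit, or the CHR match where there was no E2F match, is given here for 7 of the 10 highest-ranked members, to show where the named regions differ. Each is 24 bases of the reference sequence (RefSeq, WBcel235) read 5′ to 3′ on the strand of the gene, with the motif in capitals. Where the capitals begin with GCG, the motif lies on the other strand.
*eef-1G* (E2F, chrV:10965613-10965636, centred 44 bp upstream of the summit): cctgattcTTGGCGCcgaaatgcg
*eif-3.D* (E2F, chrIII:8971817-8971840, 4 bp upstream of the summit): tggcgaatgTTGGCGCgtttcgtg
*eif-2A* (E2F, chrII:10416691-10416714, 1 bp downstream of the summit): gtatgccgGCGCCAAatacgacgc
*eef-1B.1* (E2F, chrIII:7973429-7973452, 44 bp upstream of the summit): gaaatgaaaGCGCGAAacttgggc
*eef-1A.1* (CHR, chrIII:6972125-6972148, 26 bp upstream of the summit): ccgagagtgTTTGAAatggtgtac
*eif-3.B* (CHR, chrII:14795130-14795153, 16 bp upstream of the summit): ttatctctaTTTGAAattccgcgc
*eef-1B.2* (CHR, chrIV:15037117-15037140, 64 bp upstream of the summit): gcttcaaatTTTGAActtccctcc
The *eef-1G* and *eif-3.D* matches use the same E2F word. That at *eif-2A* is its reverse complement and 1 of 3 E2F matches in that region. The *eif-2A* region had an E2F match at its summit, yet it ranked 1637, and the thresholded *eef-1A.1* region had none within 100 bp.

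The eEF1B exchange subunit genes differed in rank and in motifs. Both eEF1B exchange subunit genes, *eef-1B.2* and *eef-1B.1*, had pooled regions close upstream, at 138 bp and 10 bp. The region of *eef-1B.1*, with an E2F and a CHR match, ranked 2223 and lies between this gene and *aco-2*. The region of *eef-1B.2*, with 2 CHR matches and no E2F match, ranked 410. It lies in the 294 bp between this gene and the end of the Fanconi anaemia gene *fcd-2*, which had a thresholded peak of its own at its start, at rank 319. The *eef-1B.2* summit had no other start within 1000 bp.

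Other translation genes were counted from a list of 29 names, of which 27 matched the annotation. Thresholded peaks were in reach of 2 of the 27 (7.41%), against 2.53% of all genes. These were *iff-2* (pooled rank 278), a gene for the elongation and termination factor eIF5A, and *gcn-1* (rank 164), which encodes an activator of the eIF2 kinase GCN-2. *iff-2* ranked 181 in replicate 3 but 5828 in replicate 2, whereas *gcn-1* ranked 291 in replicate 2 and 86 in replicate 3. Of the cap-binding eIF4E genes, *ife-3* was the best at pooled rank 433, followed by *ife-4* at 1183. *ife-1* was at 15087 and *ife-2* at 25351, and *ife-5* had a region in replicate 2 alone.

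Set beside the most similar gene groups, the members held a middle place in the share of thresholded peaks. Genes for ribosomal proteins (rpl- and rps- names) had thresholded peaks at 17 of 78 starts (21.8%, 95% interval 13.2% to 32.6%), and aminoacyl-tRNA synthetase genes at 0 of 32 (up to 10.9%). Among the 2000 highest-ranked pooled regions the shares were 29.0% for members, 46.2% for ribosomal protein genes, 37.0% for the other translation genes and 9.38% for synthetase genes, against 7.98% of all genes. At that depth of the list the elongation factor genes stood at 66.7% and the initiation factor genes at 20%. A pooled region of any rank was in reach of 83.9% of members and 53.0% of all genes. That share was 92.3% for ribosomal protein genes, 77.8% for the other translation genes and 59.4% for synthetase genes. Both replicate lists held a region at 58.1% of members, 76.9% of ribosomal protein genes, 44.4% of the other translation genes and 46.9% of synthetase genes. The median best pooled rank was 6103 for the 26 members with a region. It was 1998.5 for ribosomal protein genes, 2324 for the other translation genes, 6320 for synthetase genes and 11190 for all genes with a region, so the members' median was near that of the synthetase genes. The differences between these groups were not tested.

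**Figure D4:**
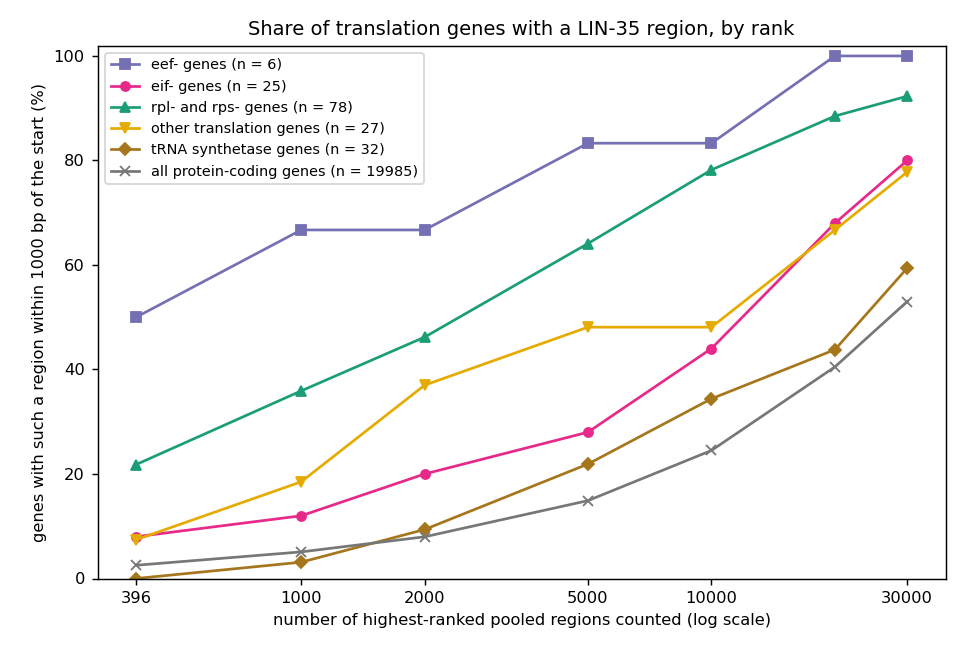
Share of genes (y axis, %) with a pooled region within 1000 bp of the start among the highest-ranked regions (x axis, number of regions counted, log scale). Lines join the values of elongation (eef-) and initiation (eif-) genes, ribosomal protein genes, other translation genes, tRNA synthetase genes and all protein-coding genes. At 396 regions the values are 50%, 8.0%, 21.8%, 7.41%, 0% and 2.53% in that order.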

How the data were processed

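Text that came with the samples says that the authors derived each deposited replicate list from that replicate's alignment and the pooled list from both, each with a further file whose role it does not state. The thresholded list was derived from the other 3. No source used here names the aligner, peak caller, IDR threshold or control. Each region has a deposited signal and a deposited −log10 q-value by column order. The signal ranked regions, and the q-value was not used for any result. Lists on ce11 (WBcel235) were used and those on ce10 were not. No sample's reads were used, so the depth is unknown.

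A gene had a region where a summit lay within 1000 bp of its Ensembl release 115 start, and the highest-ranked one was kept. Members, lists and motifs were chosen with earlier results of these data known. No test was run, as there is 1 group of 2 libraries. Genes named are members with a thresholded peak, members among the 1000 highest-ranked regions, the next 3, the eEF1 paralogs, members in no list, and neighbours. The other members were named to account for each, and the ife- genes were chosen after their values were seen. Assignment was checked on simulated regions and with bedtools 2.31.1, and the motif search on planted motifs. Python 3.11.15, numpy 2.4.6, pandas 2.3.3, scipy 1.17.1 and matplotlib 3.10.9 were used.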

Additional observations from a re-analysis of the deposited data

How the results depend on the processing

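No paired analysis was possible because there is 1 group and no comparison. The 5 members with a thresholded peak were the same 5 at 500 bp, with any base of the region, from any transcript start, and in the 396 highest-ranked regions of replicate 3. At 250 bp, and with each peak given only to its nearest start, *eef-1A.1* dropped out. Either setting left 4 members and 2 elongation factor genes. Counting the 2000 highest-ranked pooled regions gave 9 members. Leaving out peaks between starts on both strands (chosen after seeing the data) gave 2 members and 0 elongation factor genes, with no like count over all genes. Leaving out a library gave 4 to 5 members, 3 elongation factor genes and 1 to 2 eIF3 genes. The stricter list of 198 peaks gave 4 members and 1 eIF3 gene, as *eif-3.B* dropped out. At 250 bp, 13 members had a pooled region, 100% of them upstream, and 5 of the 6 members in both replicate lists had ranks within 10-fold, against 14 of 18 at 1000 bp. The fewer regions in reach make these counts lower. The CHR share was 76.9% within 200 bp of the summit, against 76.5% of all pooled regions. The E2F share of members was 23.1% within 50, 100 and 200 bp, while that of all pooled regions was 4.45%, 7.8% and 13.5%. With an added T at the start of the motif it was 11.5%, against 4.01%. Of 53 alternatives to counts and shares, 44 stayed within their limits. These limits were wide, as a fall from 3 to 2 elongation factor genes at 250 bp counted as within them. So did any E2F share from 8.97% to 43.6%. Of 40 single-gene ranks, 39 stayed on their side of rank 396, with *eif-3.B* in replicate 2 the exception. Settings with no region in reach gave no rank and were left out, such as *eef-1A.1* at 250 bp and *eif-2A* in replicate 3. A shorter distance could not change the rank of a summit already within it.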
